A study of Mus musculus with 16 samples.

Results

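The change that followed the addition of IL-1β to palmitate was measured by bulk RNA sequencing of murine gingival fibroblasts (mGF), which build the connective tissue of the gum, as 4 libraries labelled palmitate + IL-1β against 4 libraries labelled palmitate. These 8 libraries were chosen by their labels, out of 16 in the series. All were primary cells grown out of maxillary gingival explants of 3 to 6 month-old C57Bl6 mice, used at passage 2 to 8 and kept in medium with 20% fetal bovine serum. The palmitate libraries came from cells given 200 μM palmitate conjugated to BSA, and the palmitate + IL-1β libraries from cells given the same palmitate with 1 ng/mL IL-1β, both for 24 h. The other 8 libraries, 4 labelled BSA (control) and 4 labelled IL-1β (1 ng/mL without palmitate), supplied the matching comparison without palmitate. No source says whether the 4 libraries of a condition came from separate cultures or animals, so p-values measure the spread between these libraries, which may be technical.

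Palmitate, a saturated fatty acid, is stored in lipid droplets or imported into mitochondria for oxidation, and fatty acids are natural ligands of the PPAR family of nuclear receptors, which switch on genes of fatty acid use. IL-1β binds the receptor Il1r1 on fibroblasts and, through MyD88 and IRAK kinases, releases NF-κB from its IκB inhibitors. NF-κB then drives chemokines, adhesion molecules and its own inhibitors, and in gingiva such chemokines call neutrophils and monocytes to the tooth.

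A total of 16306 of 56941 genes in the table had enough counts to be tested. Counts on genes ranged from 21234789 to 92752515 in the palmitate libraries, where replicate 10 was the deepest, and from 27575315 to 35329711 in the palmitate + IL-1β libraries. Levels are given as CPM, read counts set to a common library size after TMM scaling. Fold changes, standard errors (SE) and Benjamini-Hochberg adjusted p-values come from edgeR's quasi-likelihood test in 1 fit of all 16 libraries, and a gene was called at an adjusted p under 0.05. Fibroblast markers summed to 46445 to 52458 CPM in the palmitate libraries and 47690 to 54843 CPM in the palmitate + IL-1β libraries, and of 12 markers 1 was called. Leukocyte markers summed to at most 4.10 CPM, endothelial markers to at most 2.83 CPM and epithelial markers to at most 3.64 CPM in any of the 8 libraries, with Adgre1, Cd3e, Emcn, Cldn5, Krt5 and Krt14 among those at 3 counts or fewer in each. Schwann and neural markers stood higher, at 605 to 640 CPM in the palmitate libraries and 594 to 699 CPM in the palmitate + IL-1β libraries. Of these 7 markers, Sox10 and Cdh19 were at 3 counts or fewer in each of the 8 libraries. Pericyte and smooth muscle markers summed to 182 to 196 CPM and 172 to 195 CPM.

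Levels in the libraries labelled with a single agent did not follow what is commonly known of the agents. This bears on which agent each fold change between conditions given here is credited to, and not on its size or sign. The interaction tested below also keeps its value if the labels IL-1β and palmitate are exchanged. The changes with and without palmitate that it compares would then be changes with and without IL-1β. Of 32 tested PPAR targets and fatty acid oxidation genes, 22 were higher in every library labelled IL-1β than in any library labelled palmitate, and 1 was lower, against 14.6% and 16.5% of all genes tested. Angptl4, a PPAR target, averaged 100.5 CPM in libraries labelled IL-1β and 20.7 CPM in those labelled palmitate, from 4.44 CPM in BSA (control). Of 9 CXC chemokines, in contrast, 6 were lower in every library labelled IL-1β than in any labelled palmitate and 0 were higher, and the count was 8 lower and 0 higher among 11 CC and CX3C chemokines. Among 15 NF-κB subunits and IκB proteins 7 were lower and 1 higher. Icam1, an NF-κB driven adhesion molecule, averaged 13.2 CPM in libraries labelled IL-1β and 110 CPM in those labelled palmitate, from 1.19 CPM in BSA (control). Whether the labels IL-1β and palmitate were exchanged was not tested. If they had been, the comparison described here would be the addition of palmitate to IL-1β, so "palmitate" and "IL-1β" below name libraries by their labels.

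**Figure D1:**
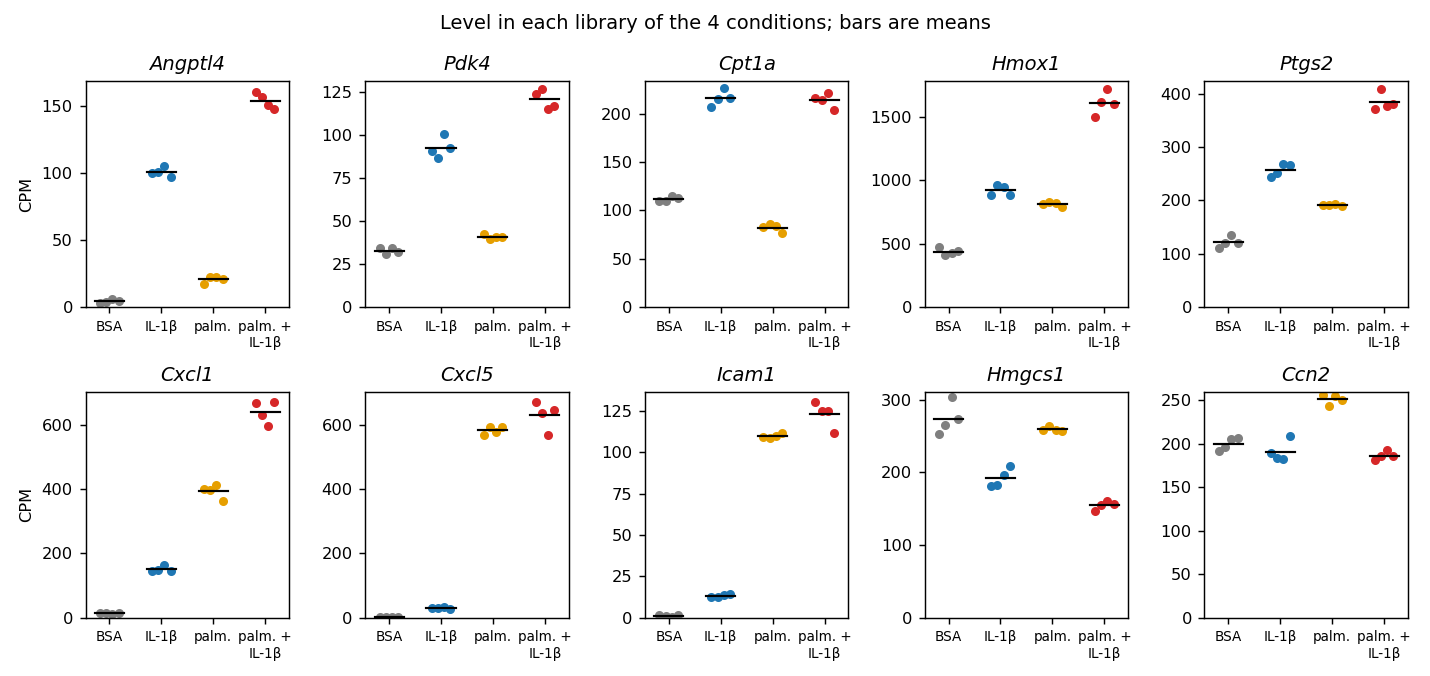
Level in CPM (vertical axes, from 0) of 10 genes in each library of the 4 conditions (horizontal axes), with points for libraries and bars for means of 4. Angptl4, Pdk4 and Cpt1a were higher in libraries labelled IL-1β than in those labelled palmitate, while Cxcl1, Cxcl5 and Icam1 were higher in those labelled palmitate.

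Adding IL-1β to palmitate moved 1599 genes past the threshold, 9.81% of those tested, of which 931 (5.71%) rose and 668 (4.1%) fell. The changes were small in most of them: 1405 of the called genes moved by less than 1.5-fold, and the median size of a called change was 0.26 on the log2 scale. The genes beyond 2-fold comprised 54 that rose and 15 that fell. The 4 libraries of one condition lay wholly above or below the 4 of the other for 2730 genes (16.7%), among them 1445 of the called genes. Over all genes tested the median log2 fold change was 0.01. The shares of 5.71% higher and 4.1% lower are the background for every list count of this comparison below. Called higher were 18 of 28 NRF2 targets, 13 of 32 PPAR targets and fatty acid oxidation genes and 9 of 15 NF-κB subunits and IκB proteins, and called lower were 25 of 40 fatty acid and cholesterol synthesis genes and 15 of 30 myofibroblast and TGF-β response genes.

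**Figure D2:**
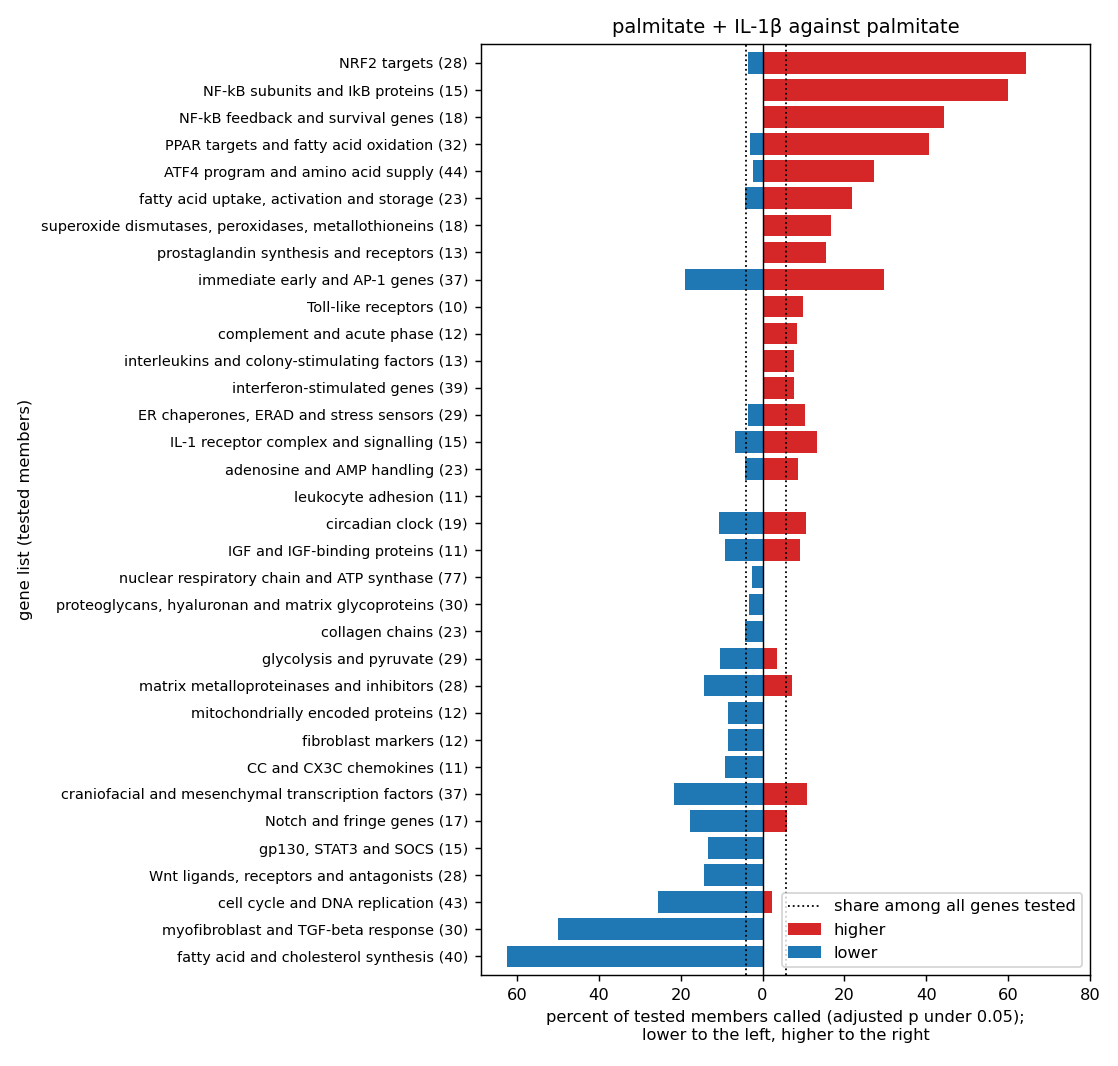
Percent of tested members called lower (bars to the left) and higher (bars to the right) in palmitate + IL-1β against palmitate, for gene lists with at least 10 tested members (numbers in brackets). Dotted lines mark the shares among all genes tested, and the longest bars are 18 of 28 NRF2 targets to the right and 25 of 40 fatty acid and cholesterol synthesis genes to the left.

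Promoter sequence is shown for 5 genes that the results turn on: 2 chemokines that rose, 2 stress genes that rose and an early enzyme of the mevalonate route, which fell. Each run covers bases 200 to 31 before the RefSeq start site, was placed in GRCm39 by exact match at a single place on its chromosome, and is written along the gene's strand. Capitals mark the NF-κB consensus in Cxcl1 (chr5:91038904-91039073, plus strand) and Cxcl2 (chr5:91051558-91051727, plus strand), the C/EBP-ATF response element TGATGNAA in Atf3 (chr1:190915561-190915730, minus strand) and Slc7a11 (chr3:50398093-50398262, minus strand), and the sterol response element TCACNCCAC in Hmgcs1 (chr13:120151687-120151856, plus strand). Motifs were searched on both strands. In the GENCODE annotation the Atf3 stretch lies inside an intron of that gene, the Hmgcs1 stretch overlaps an exon of the noncoding gene Gm60502, and the other 3 stretches overlap no annotated gene.
Cxcl1: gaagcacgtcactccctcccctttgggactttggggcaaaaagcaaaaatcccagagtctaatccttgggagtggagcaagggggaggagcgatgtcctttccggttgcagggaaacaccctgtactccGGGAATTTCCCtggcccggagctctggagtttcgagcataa
Cxcl2: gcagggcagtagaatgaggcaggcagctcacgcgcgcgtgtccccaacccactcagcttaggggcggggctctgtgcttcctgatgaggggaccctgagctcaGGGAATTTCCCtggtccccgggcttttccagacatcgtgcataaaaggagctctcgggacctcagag
Atf3: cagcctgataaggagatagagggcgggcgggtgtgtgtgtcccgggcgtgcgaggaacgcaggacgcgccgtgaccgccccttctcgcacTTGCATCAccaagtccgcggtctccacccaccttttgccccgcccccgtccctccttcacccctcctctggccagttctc
Slc7a11: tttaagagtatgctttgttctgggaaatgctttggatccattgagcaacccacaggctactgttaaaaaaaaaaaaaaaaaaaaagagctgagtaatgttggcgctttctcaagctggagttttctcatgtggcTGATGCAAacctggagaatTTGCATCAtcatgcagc
Hmgcs1: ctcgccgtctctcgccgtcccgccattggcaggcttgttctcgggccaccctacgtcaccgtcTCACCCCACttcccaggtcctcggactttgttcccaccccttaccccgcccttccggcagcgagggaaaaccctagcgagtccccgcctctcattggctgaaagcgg

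Both chemokine promoters carried the same NF-κB match, on both strands, at 71 and 97 bases before the start. Slc7a11 held a pair of matches to the ATF element. Over the promoters of all 10864 tested genes with a RefSeq promoter (250 bases before to 50 after the start), 5.09% held the NF-κB consensus, 2.29% the ATF element and 1.04% the sterol element. Of 84 such promoters of genes that rose beyond 1.5-fold, 5 (5.95%) held the NF-κB consensus, 4 (4.76%) the ATF element and 0 the sterol element. Of 34 promoters of genes that fell beyond 1.5-fold, 1 (2.94%) held the NF-κB consensus, 2 (5.88%) the ATF element and 2 (5.88%) the sterol element. The NF-κB consensus was in 4 of 6 CXC chemokine promoters and 5 of 11 promoters of NF-κB subunits and IκB proteins, and the ATF element was in 9 of 34 promoters of the ATF4 program. The antioxidant response element TGACNNNGC was in 8 of 23 NRF2 target promoters, but in 11.9% of the promoters of risen genes and 20.6% of fallen ones against 14.7% of all. The PPAR response element was in 0 of 27 promoters of PPAR targets and fatty acid oxidation genes against 0.184% of all, and the sterol element in 1 of 28 of fatty acid and cholesterol synthesis genes. Pdk4 and Ptgs2 had no match to any of the motifs searched in this window. A match describes letters and no binding was measured.

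The gene with the largest rise was Angptl4, a secreted inhibitor of lipoprotein lipase and a textbook PPAR target (GRCm39 chr17:33992724-34000804). It stood at 17.0, 22.6, 22.7 and 20.7 CPM in the 4 palmitate libraries and at 161, 157, 151 and 147 CPM in the 4 palmitate + IL-1β libraries. The libraries of the 2 conditions were far apart, with a rise of 7.33-fold (log2 2.87, SE 0.11, edgeR adjusted p = 1.25e-10). Without palmitate the rise was larger on the log2 scale, 4.52, from a lower start.

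Cpt1a and Pdk4, a pair of further PPAR targets, also rose. Cpt1a encodes the rate-limiting carnitine transferase of fatty acid import and held 82.7, 86.2, 83.8 and 76.7 CPM with palmitate and 217, 215, 222 and 204 CPM after IL-1β was added. The 2 ranges did not come near each other (2.60-fold, log2 1.38, SE 0.04, edgeR adjusted p = 1.4e-20). The level with both agents, 214 CPM, was close to the 216 CPM of the libraries given IL-1β alone. Pdk4, the kinase that turns off pyruvate dehydrogenase when fatty acids are burnt, held 42.4, 39.6, 40.5 and 40.9 CPM with palmitate and 124, 127, 115 and 117 CPM with both. Every library with both agents was above every palmitate library, and Pdk4 rose 2.96-fold (log2 1.57, SE 0.05, edgeR adjusted p = 1.4e-20).

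Of 32 tested PPAR targets and fatty acid oxidation genes, 13 rose, 1 fell and 18 were not called, with a median log2 fold change of 0.15. Plin2, which coats lipid droplets, rose from 50.2 to 83.8 CPM (log2 0.74). Acadl and Cpt2, an acyl-CoA dehydrogenase and the inner carnitine transferase, rose by 0.59 and 0.45 on the log2 scale, and so did Ppard, a PPAR receptor itself, by 0.52. The member that fell was Hadhb, a subunit of the mitochondrial trifunctional protein, by 0.21 on the log2 scale, with overlapping libraries, and this call was lost without palmitate replicate 9 or 12 or palmitate + IL-1β replicate 14, 15 or 16 (edgeR adjusted p = 0.0827 to 0.168). Among 23 tested genes of fatty acid uptake, activation and storage, 5 rose and 1 fell. Lipe, the hormone-sensitive lipase, rose the most of those named here, from 2.81 to 5.76 CPM (log2 1.04).

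In the opposite route, synthesis, the called changes were falls. Of 40 tested fatty acid and cholesterol synthesis genes, 0 rose, 25 fell and 15 were not called, and the median log2 fold change was -0.26. Hmgcs1, which makes HMG-CoA from acetyl-CoA, held 258, 264, 258 and 257 CPM with palmitate and 147, 155, 160 and 157 CPM with both. Its 4 libraries with both agents all lay under the 4 palmitate libraries, and it fell by 0.74 on the log2 scale (SE 0.05, edgeR adjusted p = 1.85e-12). Idi1, the isomerase that makes the second isoprene unit, held 30.3, 31.6, 33.2 and 32.5 CPM with palmitate and 16.8, 17.3, 17.2 and 16.4 CPM with both. This was the deepest fall among the enzymes, -0.91 (SE 0.07, edgeR adjusted p = 1.12e-11), again without overlap.

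The fall ran along much of the route from acetyl-CoA to cholesterol. Of 14 enzymes of the route described here, 13 fell, by 0.35 to 0.91 on the log2 scale, and in all 14 the libraries of the 2 conditions did not overlap. Mvk and Mvd, which phosphorylate and decarboxylate mevalonate, fell by 0.76 and 0.69. Fdps, Sqle and Lss, which make farnesyl diphosphate, squalene epoxide and lanosterol, fell by 0.47, 0.57 and 0.63. Sc5d, a sterol desaturase, was not called (log2 -0.14, edgeR adjusted p = 0.0712). Insig1, which holds SREBP in the endoplasmic reticulum (0.16), and Srebf1, an SREBP itself (0.05), were not called, although Insig1 was with 8 libraries alone (adjusted p = 0.0184). Fasn, the fatty acid synthase, averaged 182 and 152 CPM with overlapping libraries (log2 -0.26, edgeR adjusted p = 0.0644), and was called lower by DESeq2 (adjusted p = 0.011), with upper-quartile scaling (0.0409), with either other expression filter (6.04e-06 and 0.0406), with 8 libraries alone (0.00603) and without palmitate + IL-1β replicate 15 (-0.31, adjusted p = 0.0329). Without palmitate, the same 13 enzymes fell.

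**Figure D3:**
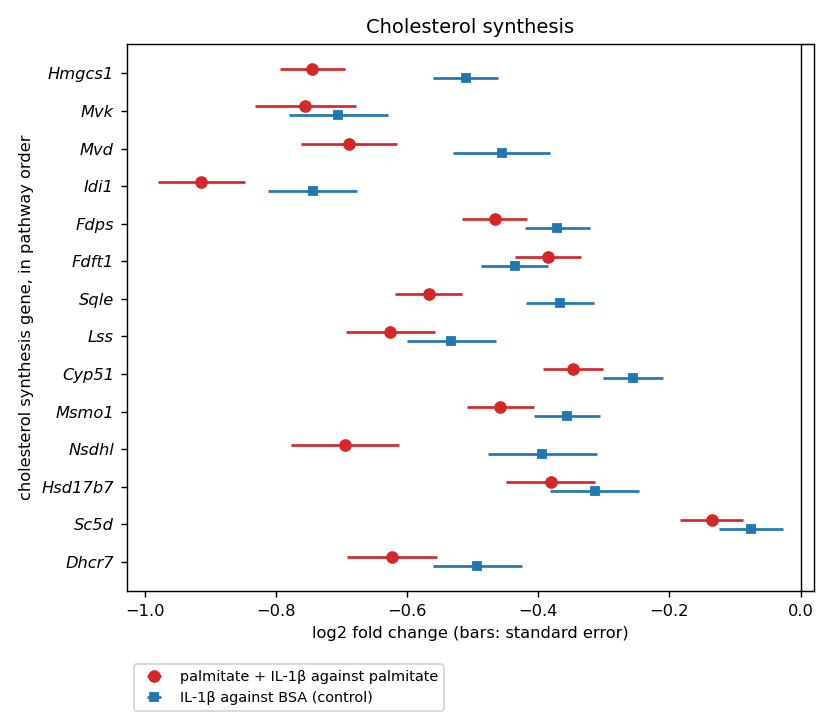
Log2 fold change (horizontal axis, bars are standard errors) of 14 cholesterol synthesis genes in pathway order (vertical axis), for palmitate + IL-1β against palmitate (circles) and IL-1β against BSA (control) (squares). In both comparisons 13 genes lie left of 0 and were called, and Sc5d was not called.

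NRF2 is a transcription factor that is freed by oxidants and electrophiles and raises genes of glutathione and heme handling. Of its 28 tested target genes, 18 rose, 1 fell and 9 were not called, with a median log2 fold change of 0.30. Hmox1, heme oxygenase 1, held 811, 826, 825 and 789 CPM with palmitate and 1505, 1618, 1720 and 1606 CPM with both. All libraries with both agents were above all palmitate libraries, a rise of 1.98-fold (log2 0.99, SE 0.05, edgeR adjusted p = 5.27e-16). Slc7a11, the cystine importer that feeds glutathione synthesis, held 396, 397, 360 and 375 CPM with palmitate and 721, 745, 892 and 691 CPM with both. The rise was 1.99-fold without overlap (log2 1.00, SE 0.08, edgeR adjusted p = 1.4e-07), and palmitate + IL-1β replicate 15 was the highest.

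Srxn1 (sulfiredoxin), Txnrd1 (thioredoxin reductase) and both subunits of the glutathione-making ligase, Gclm and Gclc, rose by 0.96, 0.71, 0.59 and 0.57 on the log2 scale. Osgin1, an oxidative stress-induced growth inhibitor, rose from 12.8 to 31.5 CPM (log2 1.32). Nfe2l2, which encodes NRF2, rose by 0.24. Nqo1, a quinone reductase often used as the marker of this response, averaged 518 and 540 CPM and was not called (log2 0.06, edgeR adjusted p = 0.492). Of 18 tested superoxide dismutases, peroxidases and metallothioneins, 3 rose and 0 fell. Prdx6, a peroxiredoxin that repairs oxidised phospholipids, rose from 178 to 329 CPM (log2 0.89), and Sod2, the mitochondrial dismutase, held 117 and 124 CPM and was not called.

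The stress factor Atf3 had the second largest rise among the genes ranked. It held 6.22, 5.26, 6.28 and 5.92 CPM with palmitate and 19.3, 21.2, 18.7 and 20.6 CPM with both, without overlap (3.44-fold, log2 1.78, SE 0.08, edgeR adjusted p = 7.65e-17). Of 44 tested genes of the ATF4 program and amino acid supply, 12 rose, 1 fell and 31 were not called, with a median of 0.04. Ppp1r15a, the phosphatase subunit that restores translation after stress, rose from 102 to 177 CPM (log2 0.79). Chac1, which degrades glutathione, rose by 0.48, and the stress hormones Fgf21 and Gdf15 rose by 1.67 and 0.84 from levels of 0.260 and 1.05 CPM. Atf4 itself, with 301 and 330 CPM (log2 0.13, edgeR adjusted p = 0.0632), Asns (0.01) and Trib3 (0.13) were not called, although Trib3 was without palmitate + IL-1β replicate 16 (0.16, adjusted p = 0.0316). Among 29 tested ER chaperones, ERAD genes and stress sensors, 3 rose and 1 fell, with a median of -0.03.

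Chemokines split. Of 9 tested CXC chemokines, 2 rose, 1 fell and 6 were not called. Cxcl2, a ligand of Cxcr2 on neutrophils, held 4.52, 6.56, 5.32 and 4.52 CPM with palmitate and 12.2, 11.5, 14.5 and 16.3 CPM with both. The ranges did not overlap (2.50-fold, log2 1.32, SE 0.11, edgeR adjusted p = 3.63e-10). Its neighbour on chromosome 5, Cxcl1, also a neutrophil attractant, held 402, 397, 412 and 363 CPM with palmitate and 669, 630, 598 and 671 CPM with both, again apart (1.63-fold, log2 0.71, SE 0.05). Cxcl5 held 566, 592, 577 and 594 CPM with palmitate and 669, 637, 568 and 646 CPM with both. The libraries overlapped and the change was not called (log2 0.11, edgeR adjusted p = 0.152), but it was without palmitate + IL-1β replicate 15 (0.16, adjusted p = 0.0259). Cxcl12, a homeostatic ligand of Cxcr4, fell from 116 to 86.1 CPM (log2 -0.43).

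Of 11 tested CC and CX3C chemokines, 0 rose and 1 fell, Ccl11, an eosinophil attractant, from 2.77 to 1.69 CPM, a call lost without palmitate replicate 9, 11 or 12 or palmitate + IL-1β replicate 13, 15 or 16 (edgeR adjusted p = 0.05 to 0.11). Ccl2 and Ccl7, which draw monocytes, had log2 fold changes of 0.17 and 0.05 and were not called, although Ccl2 did not overlap and was called with 8 libraries alone (adjusted p = 0.0153). Of 11 tested leukocyte adhesion genes edgeR called 0, with 1 at an unadjusted p under 0.05. Vcam1 and Icam1, the ligands of leukocyte integrins, had log2 fold changes of 0.05 and 0.16. DESeq2 called Icam1 (adjusted p = 0.0304), and so did edgeR with 8 libraries alone (0.0293) and without palmitate + IL-1β replicate 16 (0.21, adjusted p = 0.0186). Of 13 tested interleukins and colony-stimulating factors, 1 rose. It was Csf1, the growth factor of macrophages and osteoclast precursors, with 855, 857, 858 and 861 CPM in the palmitate libraries and 1147, 1185, 1215 and 1133 CPM in those with both. The rise was 1.36-fold and without overlap (log2 0.45, SE 0.04, edgeR adjusted p = 3.86e-10). Il6 averaged 7.97 and 9.35 CPM with overlapping libraries.

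Called changes were small among the inhibitors and subunits of NF-κB, as they were over all called genes (median log2 size 0.26). Of 15 tested NF-κB subunits and IκB proteins, 9 rose and 0 fell, with a median of 0.22. Nfkbia, which encodes IκBα, held 73.5, 76.7, 76.3 and 73.9 CPM with palmitate and 86.5, 89.7, 85.9 and 88.7 CPM with both, apart but close (log2 0.22, SE 0.05, edgeR adjusted p = 0.00115). Nfkb2 and Relb, the pair of the noncanonical pathway, rose by 0.24 and 0.31, and Nfkbiz, a nuclear IκB, by 0.26. Rela was not called (0.13). Of 18 tested feedback and survival genes, 8 rose and 0 fell, among them the ubiquitin editors Tnfaip3 (0.25) and Birc3 (0.38). When edgeR tested for a change beyond 1.2-fold, 0 of these 6 rises were called, and of all 1599 called genes 188 were kept. Of 15 tested genes of the IL-1 receptor complex, 2 rose and 1 fell, against 5.71% and 4.1% of all genes tested. Il1rl1, the IL-33 receptor chain, rose by 0.24, Il1rn, the IL-1 receptor antagonist, fell from 7.61 to 6.02 CPM, and Il1r1 was not called (-0.06). The call of Il1rn was lost without palmitate replicate 9, 11 or 12 or palmitate + IL-1β replicate 13, 15 or 16 (edgeR adjusted p = 0.0553 to 0.21).

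Ptgs2, the inducible cyclooxygenase that starts prostaglandin synthesis, held 191, 191, 193 and 190 CPM with palmitate and 370, 409, 376 and 380 CPM with both. All libraries with both agents were above all palmitate libraries (2.00-fold, log2 1.00, SE 0.05, edgeR adjusted p = 6.93e-16). Of 13 tested prostaglandin genes, Pla2g4a, the phospholipase that frees arachidonic acid, was the other one that rose (0.32), and 0 fell. Ptges, the terminal synthase of prostaglandin E, averaged 48.5 and 49.8 CPM and was not called. Among 23 tested genes of adenosine and AMP handling, 2 rose and 1 fell, against 5.71% and 4.1% of all genes tested. Ampd3, an AMP deaminase, rose from 171 to 251 CPM (log2 0.55), Panx1, a channel that releases ATP, rose by 0.34, and Pnp, purine nucleoside phosphorylase, fell by 0.22. Panx1 was not called without palmitate + IL-1β replicate 15 (0.26, edgeR adjusted p = 0.0551), nor Pnp without palmitate replicate 11 (-0.21, adjusted p = 0.0524).

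Of 30 tested genes of the contractile, TGF-β responsive fibroblast, 15 fell and 0 rose, with a median of -0.16. Ccn2, a matricellular TGF-β target, held 256, 243, 254 and 250 CPM with palmitate and 181, 186, 192 and 186 CPM with both. The 4 libraries with both agents were all lower (log2 -0.43, SE 0.04, edgeR adjusted p = 1.6e-08). Lmod1, an actin filament nucleator of smooth muscle, fell by 0.66, and Smad6, an inhibitory Smad, by 0.67. Acta2, the smooth muscle actin of myofibroblasts, fell from 3487 to 3151 CPM (log2 -0.15, edgeR adjusted p = 0.0460), and Tagln by 0.18. Leaving out any single library but palmitate + IL-1β replicate 15 ended the call of Acta2 (edgeR adjusted p = 0.0535 to 0.16), and leaving out palmitate replicate 10 or 11 or palmitate + IL-1β replicate 13 or 14 ended that of Tagln (0.0636 to 0.0851). Of 23 tested collagen chains 1 fell, and Col1a1 averaged 14033 and 13872 CPM. Has2, a hyaluronan synthase, fell by 0.40.

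Of 37 tested immediate early and AP-1 genes, 11 rose and 7 fell, and the counts in this paragraph stand against 5.71% and 4.1% of all genes tested. Myc rose from 20.2 to 34.4 CPM (log2 0.77) and Fosl1 by 0.50, while Egr3 and the kinase gene Sgk1 fell by 0.66 and 0.47. Of 43 tested cell cycle and replication genes, 1 rose and 11 fell, with a median of -0.15, cyclin D1 (Ccnd1) by 0.20 and the ribonucleotide reductase subunit Rrm2 by 0.28. Of 37 tested craniofacial and mesenchymal transcription factors, 4 rose and 8 fell. Snai2, a mesenchymal repressor, fell by 0.48, and Six2, a neural crest factor, by 0.35. Of 17 tested Notch and fringe genes, 1 rose, 3 fell and 13 were not called. Hes1, a direct Notch target, fell by 0.63 and Lfng, a glycosyltransferase that modifies Notch receptors, by 0.75. Of 28 Wnt genes tested, 4 fell and 0 rose, among them the receptor Fzd2 (-0.47) and the ligand Wnt9a (-0.49).

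The remaining large rises were in genes of varied function. Sox8, a SoxE transcription factor, held 1.17, 1.15, 1.10 and 1.31 CPM with palmitate and 3.34, 3.61, 3.76 and 3.98 CPM with both (log2 1.64, SE 0.15, edgeR adjusted p = 1.49e-09). All libraries with both agents were higher. Fam13a, a GTPase-activating protein gene, rose from 2.97 to 8.93 CPM (log2 1.61), Tent5c, a poly(A) polymerase, from 2.14 to 5.97 CPM (1.49) and Foxq1, a forkhead factor, from 2.04 to 5.31 CPM (1.39). Eid3 and the galectin Lgals4 rose by 1.28 and 1.25. Among the falls, Card10, a scaffold that links receptors to NF-κB, held 11.7, 11.6, 12.2 and 12.6 CPM with palmitate and 4.76, 4.57, 4.92 and 5.16 CPM with both. It was the largest fall of the genes ranked, without overlap (log2 -1.30, SE 0.08, edgeR adjusted p = 6.36e-14). The other falls were those of the tubulin-binding Tppp (-0.92), the poly(A) polymerase Tent5b (-0.88) and 6 long noncoding RNAs, Gm43126 (-0.92), Prss23os (-0.90), Gm20412 (-0.79), Gm13372 (-0.77), Gm45472 (-0.77) and Gm15270 (-0.76). Gm45472 held 20.7, 20.0, 19.5 and 21.0 CPM with palmitate and 13.6, 13.0, 13.7 and 6.93 CPM with both, and its call was lost when any 1 of the 8 libraries was left out (edgeR adjusted p = 0.0504 to 0.0886). That of Gm13372 was lost without palmitate replicate 12 or palmitate + IL-1β replicate 14 or 16 (0.0613 to 0.0889), and that of Gm15270 without palmitate + IL-1β replicate 13 (0.053).

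**Figure D4:**
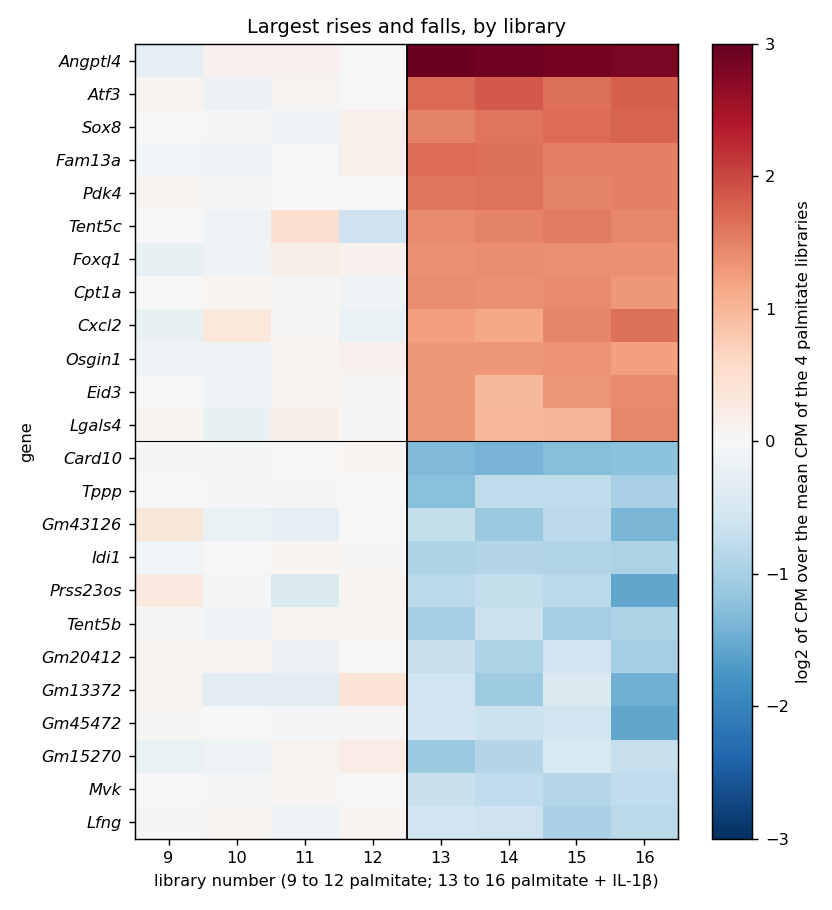
Colour gives the log2 of each library's CPM over the mean of the 4 palmitate libraries, for the 12 genes with the largest rises and the 12 with the largest falls (rows) in the 8 libraries (columns). The genes were chosen for libraries that do not overlap, so the shared sign is set by the choice, and with both agents they run from Angptl4 at 147 to 161 CPM to Lfng at 1.96 to 2.55 CPM.

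Mitochondrially encoded genes took 11.9% to 13.2% of counts in the palmitate libraries and 10.7% to 11.5% in those with both agents, without overlap (p = 0.0286 by a two-sided exact permutation test, the lowest value 4 against 4 can give). The means were 12.4% ± 0.544 and 11.1% ± 0.321 (SD, n = 4). Of 12 tested protein genes of this genome, mt-Co1, a cytochrome oxidase subunit, was the 1 that was called, from 6660 to 5575 CPM (log2 -0.26). Of 77 tested nuclear genes of the respiratory chain and ATP synthase, 2 fell and 0 rose, with a median of -0.06. In bulk RNA, fewer cells with a transcript and less of it per cell cannot be told apart. With mitochondrially encoded and ribosomal RNA genes left out of library sizes and tests, 1562 genes were called, 878 higher and 684 lower. The part of this shift in the results was not tested.

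The effect of IL-1β was then set beside its effect without palmitate, a comparison that shares no library with the first. IL-1β against BSA (control) called 2464 genes (15.1%), of which 1654 (10.1%) rose and 810 (4.97%) fell. With upper-quartile scaling that split turned to 1192 up and 1551 down. Of the 1654 that rose without palmitate, 622 also rose with it, 10 fell and 1022 were not called, and of the 810 that fell, 324 also fell. Read from the other side, 66.8% of the genes that rose with palmitate and 48.5% of those that fell had also been called in the same direction without it. All 12 of the largest rises with palmitate were also called higher without it, and 5 of the 12 largest falls were called lower. Across the 16306 genes, which are not independent replicates, the log2 fold changes of the 2 comparisons had a Pearson's r of 0.35 and a Spearman rank correlation of 0.41.

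The difference between the effects was tested gene by gene as an interaction and called 324 genes (1.99%). In 298 of them the log2 change was smaller, or more negative, with palmitate. Of those, 268 had risen without palmitate, of which 193 were not called with it, 65 still rose and 10 fell. Cxcl5 led by p-value, with a log2 rise of 3.31 without palmitate and 0.11 with it (difference -3.20, SE 0.09, edgeR adjusted p = 1.08e-21). It averaged 582 and 630 CPM in the palmitate and palmitate + IL-1β libraries, against 2.98 and 29.4 CPM in BSA (control) and IL-1β. Cxcl1 (-2.69), Ccl7 (-1.82), Vcam1 (-1.67), the complement component C3 (-1.58) and Icam1 (-3.29) followed. Cxcl2 differed by -3.79 and Angptl4 by -1.65, although both rose in either setting. Cxcl2 stood at 3 to 5 counts in the BSA (control) libraries. The log2 differences compare ratios from unlike starting levels. Cxcl1 averaged 14.3 and 151 CPM in BSA (control) and IL-1β, against 393 and 642 CPM in palmitate and palmitate + IL-1β. All 9 tested CXC chemokines, 7 of 11 CC and CX3C chemokines, 7 of 15 NF-κB subunits and IκB proteins and 7 of 28 NRF2 targets had such a negative difference. Over all 16306 genes tested, 298 did.

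In 26 genes the log2 change was larger, or less negative, with palmitate. That count was 12 to 17 without IL-1β replicate 6 or 7, without any 1 of the 4 palmitate libraries or without palmitate + IL-1β replicate 13, the lowest being without IL-1β replicate 7. It was 28 to 39 without BSA (control) replicate 3, IL-1β replicate 8 or palmitate + IL-1β replicate 15 or 16, the highest being without replicate 15. It was 46 with upper-quartile scaling, 40 with no expression filter and 3 beyond 1.2-fold. Arhgap20, a GTPase-activating protein, held 3.89, 5.15, 4.41 and 4.60 CPM with palmitate and 10.3, 10.7, 10.6 and 10.1 CPM with both, while BSA (control) and IL-1β libraries averaged 7.78 and 7.86 CPM. The libraries with and without IL-1β were apart with palmitate and overlapped without it (difference 1.15, SE 0.13, edgeR adjusted p = 1.89e-07). Cdc42ep3, a Cdc42 effector, moved alike, with 27.6 CPM in palmitate and 39.5 CPM with both against 42.7 and 43.7 CPM without palmitate (difference 0.48). Cpt1a differed by 0.42, Plin2 by 0.30 and Sox8 by 1.12. Cpt1a and Plin2 were lower in palmitate libraries than in BSA (control), at 82.4 against 112 CPM and 50.2 against 62.5 CPM. Itga2b, an integrin chain, was not called with palmitate (0.24) and fell without it. The unclassified transcript Gm45293 had the largest positive difference of those named, 3.49, at 2 to 6 counts in the palmitate libraries and 10 to 14 in those with both, and its rise with palmitate was not called without palmitate replicate 10 (1.48, edgeR adjusted p = 0.0634).

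**Figure D5:**
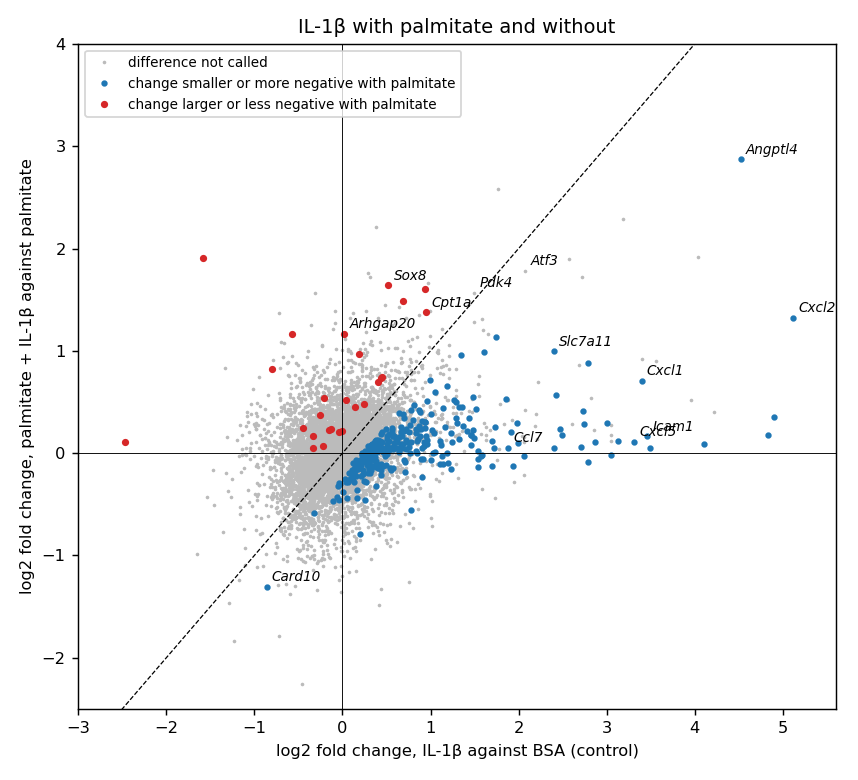
Log2 fold change of each gene for IL-1β against BSA (control) (horizontal axis) and for palmitate + IL-1β against palmitate (vertical axis), with equal effects on the dashed line, and 3 genes beyond the axes. Blue points mark the 298 genes with a negative difference, among them Cxcl5, Icam1 and Ccl7 near 0 on the vertical axis, and red points the 26 with a positive one.

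No interaction was called for the cholesterol synthesis enzymes, Hmox1, Ptgs2, Prdx6, Pdk4 or Atf3. Among the enzymes the differences were -0.23 for Hmgcs1, -0.20 for Sqle, -0.17 for Idi1, -0.09 for Lss and -0.05 for Mvk. Their SE were 0.07, 0.07, 0.09, 0.10 and 0.11. Fdft1, another of the enzymes, went the other way, with log2 changes of -0.38 with palmitate and -0.44 without it. The differences were -0.08 for Hmox1, -0.09 for Ptgs2, 0.12 for Prdx6, 0.07 for Pdk4 and -0.29 for Atf3 on the log2 scale, with SE of 0.07, 0.07, 0.06, 0.07 and 0.11. Of the 40 tested fatty acid and cholesterol synthesis genes edgeR called 0 for a difference, with 8 at an unadjusted p under 0.05 and 1 called by DESeq2. Among the 32 PPAR targets and fatty acid oxidation genes 2 were positive and 1 negative, against 26 and 298 of all 16306 genes tested.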

How the data were processed

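RNA of 16 mGF libraries was sequenced. The authors trimmed reads with Trimmomatic 0.39, aligned them with STAR 2.7.10a to GRCm39 and counted them per GENCODE gene and strand with HTSeq 2.0.9, and deposited raw counts. The library kit is a stranded one for total RNA in the labels, and an oligo(dT) primer was used according to the methods. The 5 summary rows that name no gene (18.3% to 21.4% of a library) were left out. Reads of several places were not counted, so near-identical genes are uncertain.

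Deposited counts were tested with edgeR 4.0.16 in R 4.3.3 (glmQLFit, robust, and glmQLFTest) after TMM and filterByExpr (minimum count 10), with a mean per condition over 16 libraries. Intervals and the 3-count floor (0.0323 to 0.141 CPM) cover counting error, or the fitted SE, only. Replicate pairs differed by more than sampling noise (chi-square per degree of freedom 2.66 to 17.1), so each counted once. On simulated counts for this comparison, 183 of 200 changed genes and 5 unchanged genes were called among 16012 tested. Those counts were drawn from the kind of count model that edgeR fits. Every change put in was larger than 0.26, the median log2 size of a called change, so recovery of smaller changes was not tested. Named genes were the 12 largest rises and falls past the threshold, without overlap and with average log2 CPM of at least 1, the 6 smallest p in each direction of the interaction, and members of the lists. Some list members are counted but not reported by name here. The members, lists and motifs were chosen with earlier results of these data known, and the lists got no test of their own. Positions are from GENCODE vM39, and promoters from RefSeq (GRCm38.p6). Alternatives were DESeq2 1.42.0, upper-quartile and RLE scaling, other filters, 8 libraries alone, a test beyond 1.2-fold and leaving out each library.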

Additional observations from a re-analysis of the deposited data

Results flagged for a closer look

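Among 218 groups of 4 library values checked, the highest or lowest library stood far from the other 3 in 13, and chance alone gives about 1 in 20. Palmitate replicate 10 held 92752515 counts on genes. It also held Plin2 at 53.7 CPM. Palmitate replicate 12 held Vcam1 at 547 CPM and Srxn1 at 418 CPM, and palmitate replicate 11 held Col1a1 at 13219 CPM. Palmitate + IL-1β replicate 16 held Prss23os at 1.25 CPM, Gm45472 at 6.93 CPM, Vcam1 at 559 CPM and Lipe at 5.27 CPM. Palmitate + IL-1β replicate 15 held Ppard at 80.6 CPM and Snai2 at 42.0 CPM, replicate 13 Txnrd1 at 760 CPM and replicate 14 Gclm at 398 CPM.

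The change with IL-1β differed between cells with and without palmitate, by edgeR's interaction test, in 41 of the genes named. Part of this count was set by the choice of genes, because some were named for the smallest p in each direction of this test. In the whole set of 16306 genes tested, 324 (1.99%) were called for this interaction. Differences are given on the log2 scale as the change with palmitate minus the change without it. They were negative for the chemokines Cxcl2 (-3.79), Cxcl5 (-3.20), Cxcl1 (-2.69), Ccl2 (-2.31), Ccl7 (-1.82) and Cxcl12 (-0.49), for Icam1 (-3.29), Vcam1 (-1.67) and C3 (-1.58), and for Csf1 (-0.91), Il1rn (-0.71) and Il1rl1 (-0.49). In the NF-κB loop they were -1.48 for Tnfaip3, -1.26 for Nfkbia, -1.11 for Nfkbiz, -0.63 for Birc3, -0.60 for Nfkb2 and -0.59 for Relb. Among stress genes they were -1.40 for Slc7a11, -0.46 for Gclm, -0.38 for Srxn1, -0.32 for Nfe2l2 and -0.29 for Txnrd1. Angptl4 (-1.65), Gm20412 (-0.99), Ampd3 (-0.94), Fosl1 (-0.79), Card10 (-0.44), Ccn2 (-0.36), Sgk1 (-0.36), Rrm2 (-0.34) and mt-Co1 (-0.28) were also negative. Positive differences were those of Gm45293 (3.49), Arhgap20 (1.15), Sox8 (1.12), Tent5c (0.80), Itga2b (0.70), Fam13a (0.66), Cdc42ep3 (0.48), Cpt1a (0.42) and Plin2 (0.30).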

How the results depend on the processing

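DESeq2, upper-quartile and RLE scaling, other filters, leaving out mitochondrial and ribosomal RNA genes and fitting 8 libraries alone gave 1550 to 1795 called genes for palmitate + IL-1β against palmitate, each within 1.5 times of 1599. Testing beyond 1.2-fold left 188, and 383 for IL-1β against BSA (control) and 122 for the difference between the effects. Of the called genes 58.2% were higher, 69.1% beyond 1.2-fold and 48.4% with no expression filter (756 higher, 806 lower). With no filter and without palmitate replicate 10, an alternative chosen after seeing the data, 58.8% of 1236 were higher. The cause was not tested. Leaving out each library in turn gave 1161 to 1492 called genes, with 54.4% to 61.7% higher, 1784 to 2486 for IL-1β against BSA (control) and 258 to 371 for the difference.

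Of 106 named genes followed, 69 kept direction and side of the threshold under every alternative, and 0 called genes changed direction. Testing beyond 1.2-fold ended, among others, the calls of Has2, Six2, Snai2, Wnt9a, Fosl1, Egr3, Pla2g4a, Panx1, Il1rl1, Nfe2l2, Gdf15, Rrm2, Ccnd1 and mt-Co1. Over tools, scalings, filters and 8 libraries alone, members called higher among NRF2 targets ranged from 16 to 18, and members called lower in fatty acid and cholesterol synthesis from 25 to 27. Small counts moved more: 2 to 6 lower in the nuclear respiratory chain, 1 to 3 in adenosine handling and 3 to 5 in glycolysis, and 3 to 5 higher in fatty acid uptake and in superoxide dismutases and peroxidases, 1 to 3 among interferon-stimulated genes and 0 to 3 in the clock. No paired analysis was possible because no replicate number is shared between conditions. Depth limits low genes, for which 3 counts are 0.0323 to 0.141 CPM.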

Other observations

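Counts follow for gene groups not described above, when IL-1β was added to palmitate, against 5.71% of all tested genes higher and 4.1% lower. Of 39 tested interferon-stimulated genes 3 rose and 0 fell, with a median log2 fold change of 0.17. Of 12 complement and acute phase genes 1 rose, of 10 Toll-like receptor genes 1 rose, and of 15 genes of gp130, STAT3 and SOCS signalling 2 fell. Of 28 matrix metalloproteinases and inhibitors 2 rose and 4 fell, and of 30 proteoglycan, hyaluronan and matrix glycoprotein genes 1 fell. Of 29 glycolysis and pyruvate genes 1 rose and 3 fell, and of 19 circadian clock genes 2 rose and 2 fell. Of 9 nitric oxide and arginine genes 1 rose and 2 fell, and 1 rose and 1 fell among both the 11 IGF genes and the 7 osteoclast-regulating factors.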
